A study of Mus musculus with 32 samples.

Results

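The genes described here are the axon guidance ligands and receptors of the mouse: ephrins and Eph receptors, semaphorins and plexins, slits and Robo receptors, and netrins and Unc5 receptors. They were chosen by gene symbol, and 67 of the 22850 genes in the table carried one of these symbols. The 67 were 36 ligands (9 ephrins, 7 secreted class 3 semaphorins, 13 membrane-bound semaphorins, 3 slits, and 4 netrins) and 31 receptors (14 Eph receptors, 9 plexins, 4 Robo receptors, and 4 Unc5 receptors). *Efna5* stood on 2 rows, so the genes had 66 symbols. Their RNA was measured in β cells, ECs, and MΦs sorted from mouse islets, and 32 samples were used. All groups carried 3 transgenes (MIP-GFP, RIP-rtTA, and TetO-VEGF-A) on a C57BL/6 background, and mice were 8 to 16 weeks old when experiments began. The rat *Ins2* promoter of RIP-rtTA drives the rtTA activator in β cells, doxycycline (Dox) then switches on human VEGF-A there, and the mouse *Ins1* promoter of MIP-GFP marks the same cells with GFP. No Dox mice were untreated, so the VEGF-A transgene was not induced. The 1wk Dox mice received Dox for 1 week, and 1wk WD mice were taken 1 week after Dox withdrawal (WD). β cells were sorted as GFP+ cells without CD31 or CD11b, ECs by CD31, and MΦs by CD11b. In the order of these 3 treatments there were 4, 5, and 3 samples of β cells, 4, 1, and 5 of ECs, and 4, 2, and 4 of MΦs. The column numbers of all EC and MΦ samples at 1wk Dox, and of β cell replicate 3 at 1wk WD, lay apart from all others. What these numbers stand for is not given, and in ECs and MΦs they cannot be told apart from Dox. Since islets of several mice went into a sample, p-values measure the spread between pools.

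Axon guidance molecules were named for steering growing nerve fibres, and they also act between cells of other tissues. Ephrins are held in the membrane and signal to Eph receptors on touching cells, and plexins receive semaphorins, often with a neuropilin beside them. Robo1 and Robo2 bind slits, and Unc5 receptors bind netrins. In vessels, ephrin-B2 and EphB4 separate arteries from veins, Robo4 is a receptor largely restricted to endothelium, and class 3 semaphorins oppose VEGF by sharing neuropilins with it. In islets, EphA and ephrin-A contact between β cells tunes insulin release, and Robo receptors with slits keep islet cells in place.

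Promoters are printed for 4 genes on which the comparisons below turn: the receptor with the highest EC level per kilobase (*Robo4*), the receptor called highest in MΦs (*Plxnc1*), the ligand with the highest β cell level per kilobase (*Efna5*), and the ligand that rose in MΦs over time (*Sema6d*, 2 start sites). Each runs 5′ to 3′ on the gene's strand, from 250 bases before the start site to 50 after it, from RefSeq on GRCm38.p6. The scores were made on mm9, and no coordinate was converted. Capitals mark AGGAAG, a form of the site read by ETS factors, and GGGCGG, the GC box, on either strand (CTTCCT and CCGCCC on the other).
*Robo4*, chr9:37401722-37402021, plus strand: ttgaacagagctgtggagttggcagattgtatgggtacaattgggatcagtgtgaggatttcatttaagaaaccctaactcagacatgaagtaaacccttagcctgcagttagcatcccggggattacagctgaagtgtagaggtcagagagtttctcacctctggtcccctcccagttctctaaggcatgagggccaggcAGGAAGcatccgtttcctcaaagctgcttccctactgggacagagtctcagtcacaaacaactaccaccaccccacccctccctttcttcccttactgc
*Plxnc1*, chr10:94944796-94945095, minus strand: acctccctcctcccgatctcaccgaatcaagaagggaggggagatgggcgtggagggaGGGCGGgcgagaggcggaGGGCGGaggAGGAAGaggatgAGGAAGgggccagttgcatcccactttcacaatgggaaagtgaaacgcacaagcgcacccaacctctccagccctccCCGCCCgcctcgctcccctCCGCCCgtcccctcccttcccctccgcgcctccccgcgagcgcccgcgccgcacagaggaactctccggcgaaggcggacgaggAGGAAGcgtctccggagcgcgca
*Efna5*, chr17:62881268-62881567, minus strand: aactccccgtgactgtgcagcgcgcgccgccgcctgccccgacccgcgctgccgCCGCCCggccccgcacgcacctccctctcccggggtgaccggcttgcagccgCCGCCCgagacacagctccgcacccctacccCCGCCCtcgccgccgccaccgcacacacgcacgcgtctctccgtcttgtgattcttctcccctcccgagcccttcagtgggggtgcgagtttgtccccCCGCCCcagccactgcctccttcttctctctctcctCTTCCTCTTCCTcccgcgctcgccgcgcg
*Sema6d*, first start site, chr2:124089719-124090018, plus strand: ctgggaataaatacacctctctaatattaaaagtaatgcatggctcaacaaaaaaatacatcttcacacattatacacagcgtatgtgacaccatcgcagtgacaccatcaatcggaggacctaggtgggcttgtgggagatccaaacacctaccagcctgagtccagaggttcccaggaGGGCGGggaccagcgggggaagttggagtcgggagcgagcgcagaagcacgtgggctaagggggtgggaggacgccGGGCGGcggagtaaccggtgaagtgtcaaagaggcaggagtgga
*Sema6d*, second start site, chr2:124653331-124653630, plus strand: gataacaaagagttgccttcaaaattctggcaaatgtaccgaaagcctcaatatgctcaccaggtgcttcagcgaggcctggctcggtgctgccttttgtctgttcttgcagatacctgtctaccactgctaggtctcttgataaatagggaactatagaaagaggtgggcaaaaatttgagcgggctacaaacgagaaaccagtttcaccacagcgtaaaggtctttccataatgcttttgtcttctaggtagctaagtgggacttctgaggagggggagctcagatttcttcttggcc
The *Robo4* window held AGGAAG once and no GC box, the *Plxnc1* window held 3 and 4, and the *Efna5* window held 2 and 4. The first *Sema6d* window held 2 GC boxes and no AGGAAG, and the second held neither. Of the 66 symbols, 57 matched 73 promoters in the RefSeq table. AGGAAG was in 27 of the 73 (37%), against 35.4% of all 32851 promoters of this length. By cell type of highest RNA, defined below, it was in 11 of 25 promoters of the EC genes (44%), 3 of 8 of the MΦ genes (37.5%), and 3 of 14 of the β cell genes (21.4%). GGGCGG was in 51 of 73 (69.9%), against 35.7% of all promoters, and in 76%, 62.5%, and 57.1% of the same 3 sets. A match is a description of letters and not a bound site.

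The unit throughout is a score: a gene's expression as normalized by the authors, given in whole numbers from 1 upward. Reads cannot be recovered from scores, and the depth behind a value is unknown. They summed to between 23465985 and 53441769 per sample. Each sorted population carried its own markers: the summed score of 9 endothelial markers was 409477 to 659411 in ECs, that of 8 macrophage markers was 225585 to 467468 in MΦs, and that of 9 β cell markers was 502570 to 10896496 in β cells. The β cell samples also held markers of other cells. Their index of 9 pericyte and stromal markers (mean log2(score + 1)) was 5.41 and 4.39 in No Dox replicates 1 and 2, 13.2 and 14.8 in replicates 3 and 4, and 10.8 to 14.8 in all 8 later samples. An acinar index, from digestive enzyme genes, was 11.6 to 20.03 in No Dox β cells and 3.74 to 10.4 at 1wk Dox. These values are set beside the results they move with, and their part in those results was not tested.

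At No Dox, 57 of the 67 genes reached a mean score of 20 in β cells, compared with 55 in ECs and 47 in MΦs, and 22, 26, and 10 reached 1000. The genes together made up 0.903 to 1.03% of the summed scores of a No Dox EC sample, 0.191 to 0.311% of a β cell sample, and 0.117 to 0.191% of an MΦ sample. The EC range lay above both others, which overlapped. No group reached a mean of 20 for *Epha5*, *Epha6*, *Ntn5*, *Unc5d*, and the second *Efna5* row, which was at 1 in all 32 samples. That row (ENSMUSG00000090425, chr17:62953641-62956056 in mm9) lies within the span of the main *Efna5* row (chr17:62953533-63230666), and how reads were shared between the 2 is not given in the sources used here.

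**Figure D1:**
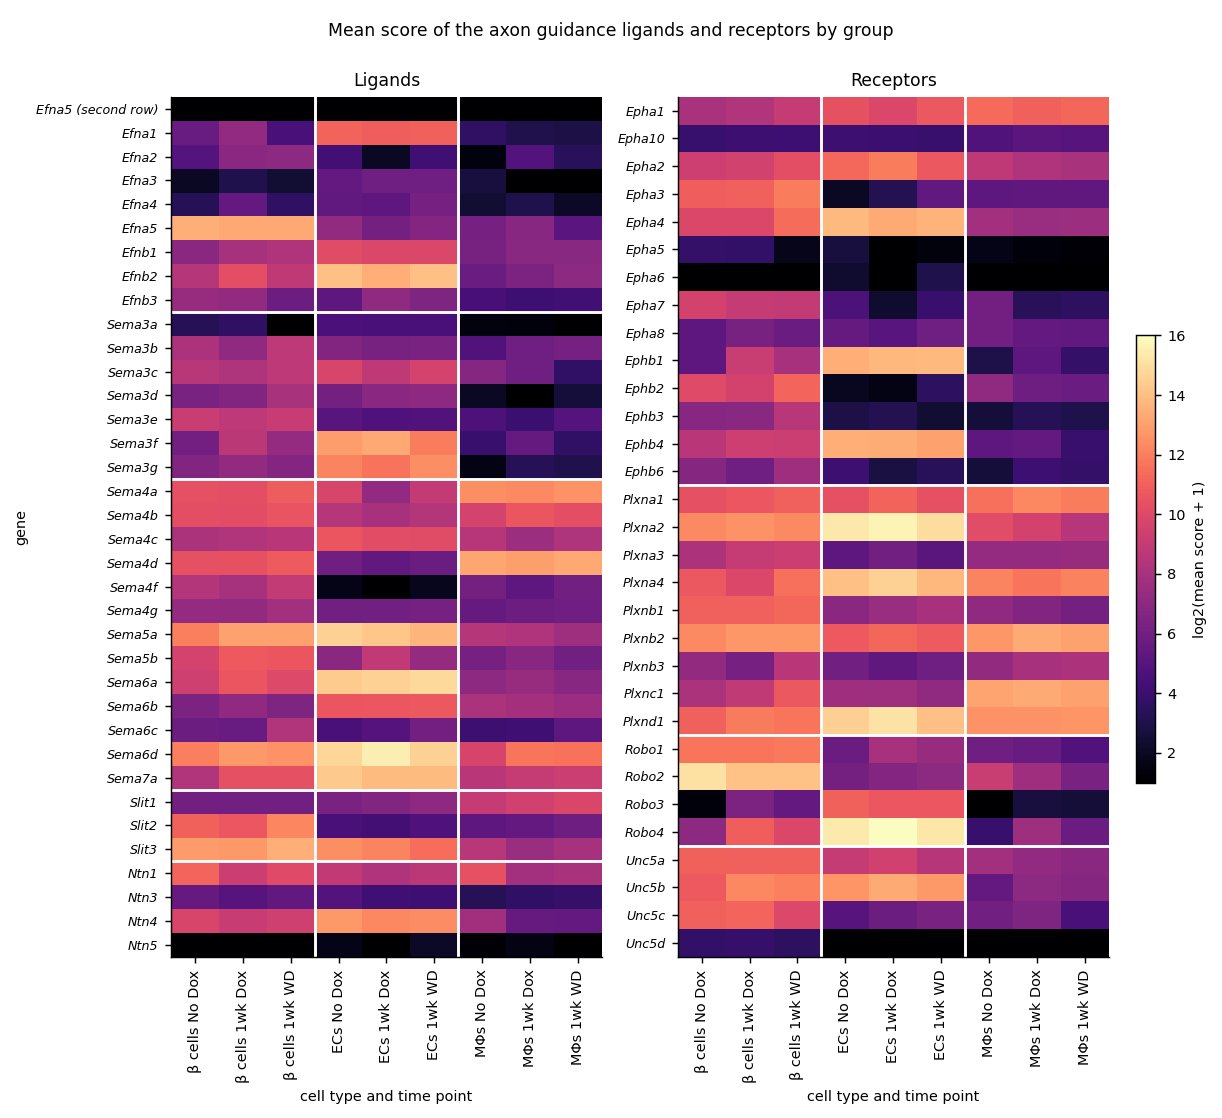
Mean score of each of the 67 genes in the 9 groups, coloured as log2(mean score + 1), with ligands on the left and receptors on the right and white lines between classes and between cell types. Most rows differ more between cell types than between time points: *Robo4* had a mean score of 43208 in No Dox ECs and 14 in No Dox MΦs.

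The first question was which cell type carried which ligand and receptor. Scores were compared as log2(score + 1) with limma across the 3 cell types at No Dox, 4 samples each, and a gene was called at a 2-fold difference and a Benjamini-Hochberg adjusted p under 0.05 over the 16380 genes tested, 62 of them guidance genes. Between ECs and β cells, 44 of the 62 were called (37.7% of all genes), 26 higher (16.5%) and 18 lower (21.2%) in ECs. Between MΦs and β cells, 34 were called (43.2% of all genes), 9 higher (19.7%) and 25 lower (23.5%) in MΦs. Between MΦs and ECs, 36 were called (33.5% of all genes), 9 higher (17.6%) and 27 lower (15.9%) in MΦs. The median log2 difference of the 62 genes was 0.45 from β cells to ECs, -1.94 from β cells to MΦs, and -1.85 from ECs to MΦs, beside medians of -0.07, -0.12, and 0.01 over all genes. A gene called higher in one cell type than in both others is named here as highest in it. That held for 22 of the 62 genes in ECs (8.19% of all genes), 4 in MΦs (10.9%), and 12 in β cells (13.9%). *Robo3*, *Efna3*, *Efna4*, and *Sema3a* reached the minimum mean score of 20 only in ECs, and *Ephb6* only in β cells. The filter itself chose these genes for being high there.

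The 22 EC genes were 15 ligands and 7 receptors. *Robo4* (ENSMUSG00000032125, chr9:37209482-37221608 in mm9) scored 38433, 47749, 42860, and 43788 in No Dox ECs, 135, 63, 231, and 76 in β cells, and 28, 13, 11, and 4 in MΦs. Every EC sample stood above every other sample, and the log2 difference was 8.59 over β cells (SE 0.51, adjusted p = 2.21e-07) and 11.75 over MΦs. *Robo3*, a Robo family receptor known from axons that cross the midline, scored 1506 to 2709 in ECs, was at 1 in all 4 MΦ samples, and was at 1, 1, 3, and 1 in β cells. Here and below, no log2 difference is given over a group in which at least 3 of 4 samples scored 5 or less, because it would rest on the pseudocount. *Robo3* (chr9:37223254-37240760) lies tail to tail with *Robo4*, with 1645 bases between them, and whether reads of one were counted to the other was not tested.

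Eph receptors followed. *Ephb4*, the venous receptor of ephrin-B2, scored 12205, 10747, 11543, and 10408 in ECs, 64, 1, 561, and 958 in β cells, and 18, 101, 1, and 26 in MΦs. ECs were above all other samples, by a log2 difference of 6.94 over β cells (SE 1.69, adjusted p = 0.00516) and 9.28 over MΦs. *Ephb1*, another receptor of B ephrins, was higher in ECs by 8.64 over β cells and scored 3, 21, 2, and 1 in MΦs. *Epha4*, which binds ephrins of both types, was higher by 5.75 and 5.95. The semaphorin receptor *Plxna2* had a mean score of 40951 ± 4497 (SD, n = 4) in ECs and was 2.96 higher than in β cells and 5.36 higher than in MΦs. *Unc5b*, a vascular netrin receptor, was higher by 2.65 and 7.28.

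Among the ligands, *Efnb2*, ephrin-B2, scored 14937, 15449, 20456, and 16048 in ECs, 51, 143, 538, and 695 in β cells, and 83, 71, 36, and 23 in MΦs. The EC samples did not overlap with the others, and the log2 difference was 6.17 over β cells (SE 0.71, adjusted p = 2.68e-05) and 8.43 over MΦs. The other ephrins highest in ECs were *Efna1* (5.59 over β cells, with 2, 41, 1, and 1 in MΦs), *Efnb1* (3.18 over β cells and 3.999 over MΦs), *Efna4* (2.76 and 3.14), and *Efna3*, which scored at most 5 in β cells and 1, 19, 1, and 1 in MΦs. *Efna1*, *Efna3*, and *Efna4* lie within 66.3 kb of chromosome 3 (mm9), and the latter pair was low, at 27 to 52 and 26 to 67 in ECs.

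Of the secreted class 3 semaphorins, which repel cells through neuropilins and plexins, *Sema3f* scored 7607, 7798, 8236, and 6868 in ECs, 21, 8, 44, and 190 in β cells, and 3, 3, 51, and 2 in MΦs. Its log2 difference was 7.72 over β cells (SE 1.00, adjusted p = 6.21e-05), and ECs did not overlap with either group. *Sema3g*, typical of arterial endothelium, was 5.82 higher than in β cells and scored 3, 3, 1, and 1 in MΦs. *Sema3a*, also called highest in ECs, reached only 12 to 38 there. The 6 membrane-bound semaphorins were *Sema7a*, a lipid-anchored ligand (7.09 over β cells and 5.798 over MΦs), *Sema6a* (5.15 and 7.51), *Sema5a* (4.01 and 6.31), *Sema6d* (3.18 and 5.08), *Sema6b* (4.41 and 2.58), and *Sema4c* (3.55 and 2.16). *Ntn4*, a netrin of the basement membrane, was 3.44 higher than in β cells and 5.41 higher than in MΦs.

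MΦs had 4 genes. *Plxnc1* (ENSMUSG00000074785, chr10:94253617-94407212), the plexin that binds Sema7a, scored 10562, 7240, 11682, and 7490 in MΦs, 42, 62, 477, and 549 in β cells, and 269, 193, 188, and 188 in ECs. All MΦ samples lay above the rest, with a log2 difference of 5.79 over β cells (SE 0.72, adjusted p = 3.88e-05) and 5.44 over ECs. *Sema4d*, which signals through plexin-B1 and is known from leukocytes, scored 12327, 9218, 7111, and 10196 in MΦs, 1509, 1105, 1400, and 1113 in β cells, and 61, 47, 92, and 48 in ECs. The groups formed 3 separate steps, 2.91 above β cells (SE 0.24, adjusted p = 2.24e-06) and 7.29 above ECs. *Sema4a*, another semaphorin of immune cells, was higher by 2.27 and 3.39, and *Slit1*, a Robo ligand, by 3.06 and 2.73.

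The 12 β cell genes were 4 ligands and 8 receptors. *Robo2* (ENSMUSG00000052516, chr16:73892551-74412070) scored 46563, 59448, 21509, and 10362 in β cells, 81, 63, 58, and 78 in ECs, and 118, 1295, 710, and 159 in MΦs. Every β cell sample was above every other sample, by a log2 difference of 8.64 over ECs (SE 0.74, adjusted p = 2.91e-06) and 6.27 over MΦs. The MΦ value of 1295 came from No Dox replicate 2, which also had the highest β cell marker index of the MΦ samples (8.98). *Efna5*, an ephrin-A ligand of β cell contacts, scored 18482, 16287, 7112, and 4679 in β cells, 160, 205, 86, and 147 in ECs, and 86, 127, 35, and 45 in MΦs. β cells stood clear of the rest by 6.12 (SE 0.52, adjusted p = 2.62e-06) and 7.25. *Robo1* was 6.08 higher than in ECs and 6.32 higher than in MΦs, and *Unc5c*, a netrin receptor, 5.83 and 5.29. Their order among β cell replicates is taken up below.

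*Slit2*, the ligand of Robo1 and Robo2, scored 255, 225, 2337, and 5594 in β cells, 30, 32, 2, and 21 in ECs, and 68, 37, 4, and 45 in MΦs. The β cell samples were higher than all others by 5.85 over ECs (SE 1.22, adjusted p = 0.00195) and 5.06 over MΦs, and the higher values were those of the replicates with high stromal markers. The Eph receptors were *Epha7* (4.93 over ECs and 5.07 over MΦs), *Epha3* (4.70 over MΦs, with 4, 1, 3, and 4 in ECs), and *Ephb6*, which lacks kinase activity (2.39 over ECs, with 4, 1, 1, and 14 in MΦs). The remaining 4 were *Plxnb1* (3.91 over ECs and 5.75 over MΦs), *Sema3e* (3.94 and 5.62), *Efnb3* (2.04 and 2.82), and *Unc5a* (1.91 and 3.998).

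**Figure D2:**
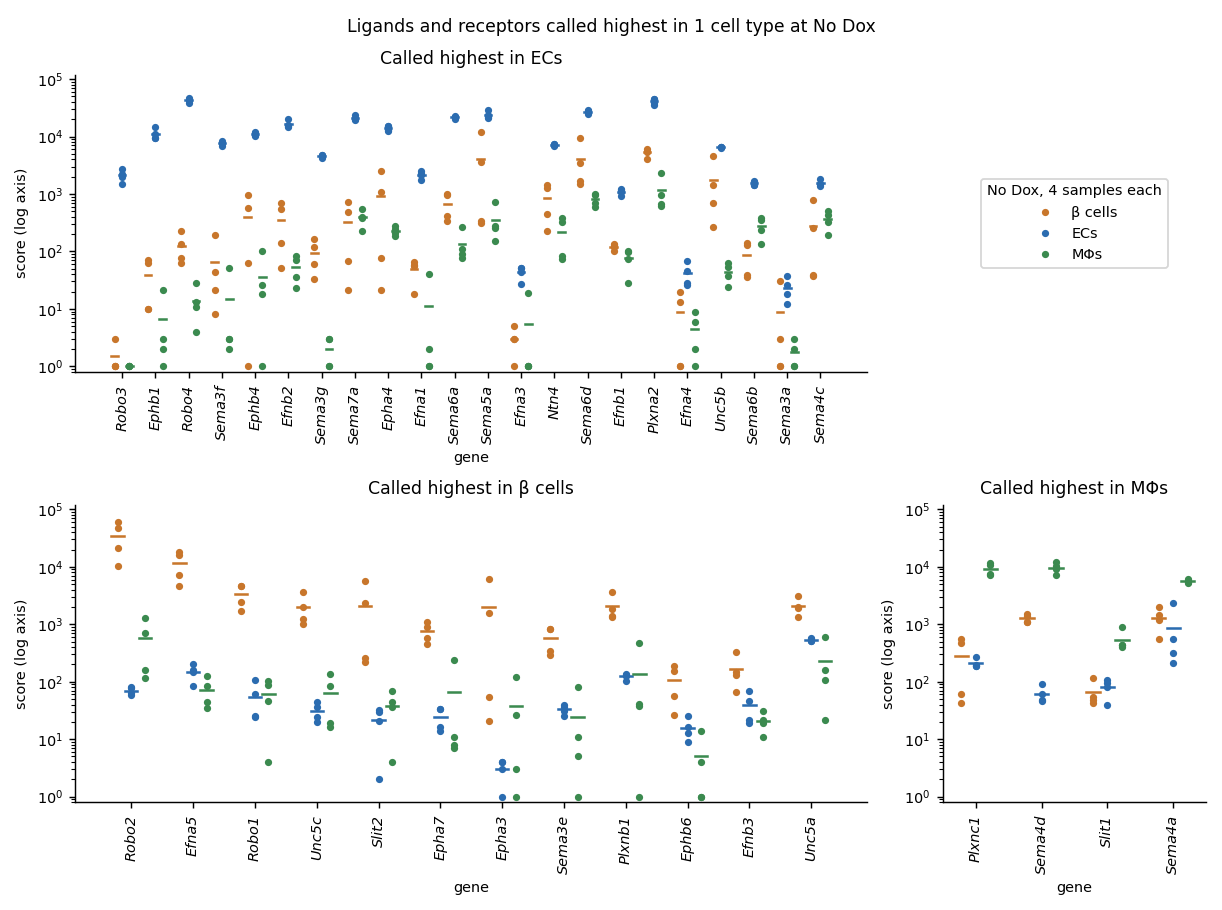
Scores of the 38 genes called highest in 1 cell type at No Dox, on log axes, with a point per sample (4 samples per cell type) and a short line at each mean. EC points lie close together within most genes, while β cell points of some genes, such as *Epha3* (21 to 6225), and MΦ points of some, such as *Plxnb1*, spread widely.

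The other 24 of the 62 genes were highest in no cell type, and 9 of them were called in none of the 3 comparisons, *Ntn1* and *Ephb3* among them. Some were set apart by a low value instead. MΦs were lower than both others in 13 genes (7.77% of all genes), which included *Sema3c*, a secreted semaphorin with a mean score of 109 ± 201 in MΦs, 381 ± 289 in β cells, and 861 ± 93.7 in ECs. ECs were lower than both others in 6 genes (7%). These included *Plxnb2*, a broadly expressed semaphorin receptor (1709 ± 135 in ECs, 5079 ± 863 in β cells, and 6760 ± 1336 in MΦs), and *Sema4b*. β cells were lower than both others in 4 genes (7%): *Epha1*, *Plxna4*, *Plxnd1*, and *Sema6b*. *Epha1*, an ephrin-A receptor, had a mean score of 2544 ± 349 in MΦs, 1381 ± 319 in ECs, and 263 ± 244 in β cells.

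With each No Dox sample of the cell types compared left out in turn, 19 of the 22 EC genes, 4 of the 4 MΦ genes, and 9 of the 12 β cell genes stayed highest in every refit. Those lost in at least 1 refit were *Efna4*, *Sema3a*, and *Sema4c* in ECs and *Epha3*, *Ephb6*, and *Unc5a* in β cells. Without β cell replicates 3 and 4, the samples with high stromal markers, 22 of 22 EC genes, 3 of 4 MΦ genes, and 8 of 12 β cell genes stayed. *Sema4a* was then lost in MΦs, and *Efnb3*, *Epha3*, *Plxnb1*, and *Unc5a* in β cells. The genes called higher in MΦs than in β cells then numbered 15 in place of 9.

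Levels of different genes were ranked only per kilobase of exon, with exon lengths from GENCODE M1. By this measure *Robo4* led the EC receptors with a mean of 10520 score units per kilobase at No Dox, and *Sema7a* led the EC ligands with 6348, ahead of *Efnb2* with 3491. *Robo2* led the β cell receptors with 2087 and *Efna5* the β cell ligands with 2887. In MΦs *Plxnc1* led the receptors with 1313 and *Sema4d* the ligands with 1506. The β cell order was not the same in every replicate: in No Dox replicate 4 *Slit3* (3653) was above *Efna5* (1161), and *Epha3* (1100.0) was above *Robo2* (627). These are descriptions, and no test was made between genes.

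Known partners were read across the cell types from the same No Dox calls. Mean scores are given for each gene and were not compared between genes. *Sema7a* was highest in ECs (mean score 20925) and its receptor *Plxnc1* in MΦs (9244). *Sema4d* was highest in MΦs (9713) and *Plxnb1* in β cells (2050). *Slit2* was highest in β cells (2103), as was *Robo1* (3362). *Efna5* was highest in β cells (11640), as was *Epha7* (755), whereas *Epha4* was highest in ECs (14078). Some pairs fell within 1 cell type: *Efnb2* with *Ephb4*, and *Sema6a* with *Plxna2*, were both highest in ECs. *Ntn1*, the founding netrin, was highest in none, with a mean of 2343 for β cells, 482 for ECs, and 1306 for MΦs. The MΦ mean rested largely on 1 sample (282, 3814, 348, and 780), and β cells scored 952, 607, 4781, and 3033. *Unc5b* was highest in ECs and *Unc5c* in β cells. *Plxnd1*, the receptor of *Sema3e*, was highest in none at No Dox, at 23369 in ECs and 6144 in MΦs, and *Sema3e* was highest in β cells. RNA in sorted samples does not show that a ligand met its receptor.

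Of the 12 coreceptors and other guidance receptors tested, 2 were called higher and 4 lower in ECs than in β cells (37.7% of all genes called), 3 higher and 3 lower in MΦs than in β cells (43.2%), and 5 higher and 3 lower in MΦs than in ECs (33.5%). *Nrp1*, the neuropilin that binds both VEGF and class 3 semaphorins, had a mean score of 81755 ± 6092 (SD, n = 4) in No Dox ECs, with a log2 difference of 6.60 over β cells (SE 1.12, adjusted p = 0.000472) and of -4.20 from ECs to MΦs (adjusted p = 0.00934). *Nrp2* was also called higher in ECs, by 5.30 over β cells. *Neo1*, a receptor of netrins and of repulsive guidance molecules, was called lower in MΦs, by a log2 difference of -4.25 from β cells and -3.43 from ECs. *Dcc*, the attractive netrin receptor, was at 1 to 304 in β cells and at 6 or less elsewhere, and was called in no comparison of cell types.

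At 1wk WD the same comparison was made with 3 β cell, 5 EC, and 4 MΦ samples over 16435 genes. It called 50 of 62 guidance genes between ECs and β cells (39.9% of all genes), 44 between MΦs and β cells (46.2%), and 46 between MΦs and ECs (40.3%). Highest in ECs were 22 genes (8.06% of all genes), 20 of them the same as at No Dox, with *Plxna4* and *Plxnd1* added and *Unc5b* and *Sema5a* no longer called. Highest in MΦs were 5 (12.5%), with *Plxna1* added to the 4 from No Dox. β cells had 21 (15.4%), 11 of them shared with No Dox. *Efnb3* was no longer called, and the additions were *Efna2*, *Ephb2*, *Ephb3*, *Ntn1*, *Plxna3*, *Sema3b*, *Sema4f*, *Sema4g*, *Sema5b*, and *Sema6c*. Of the additions, *Efna2* and *Ephb3* reached the minimum mean score of 20 only in β cells, so the filter itself chose them for being high there. The stromal index of the 1wk WD β cells was 14.8, 14.6, and 10.8, and its part in the additions was not tested. *Ephb2*, a receptor of B ephrins, scored 3741, 3018, and 252 in the same samples against 123, 80, 1326, and 2709 at No Dox. The values of the 2 time points overlapped, and a call at one time point and not at the other does not show that the difference changed.

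Within the No Dox β cells, replicates 3 and 4 stood apart from replicates 1 and 2 in most of these genes. Of the 57 genes with a mean of at least 20, both of replicates 3 and 4 were above both of 1 and 2 in 38 (66.7%, beside 32.2% of 15459 genes), and both were below in 7 (12.3%, beside 33.5%). *Slit3*, a Robo ligand also made by mesenchyme, scored 147, 77, 7395, and 22163 in replicates 1 to 4. *Epha3* scored 21, 55, 1554, and 6225, and *Epha2* scored 13, 8, 512, and 2051. The opposite order was seen in *Robo2*, *Efna5*, and *Robo1*, the last with 4635, 4661, 1703, and 2450. Replicates 3 and 4 were those with the high stromal index, and the index of the β cell markers was 16.2 and 16.1 in replicates 1 and 2 and 14.1 and 12.8 in replicates 3 and 4. Several other indices were also higher in replicates 3 and 4: the acinar index was 15.9 and 11.6 in replicates 1 and 2 and 20.03 and 19.4 in 3 and 4, the ductal index 7.899 and 7.35 against 9.76 and 9.12, the index of α, δ, and PP cell markers 9.515 and 9.14 against 11.5 and 10.7, and the index of Schwann and glial cell markers 5.42 and 5.58 against 7.89 and 8.84. The part of other cells in these samples was not tested, and in bulk RNA fewer cells of a type and less RNA per cell cannot be told apart.

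**Figure D3:**
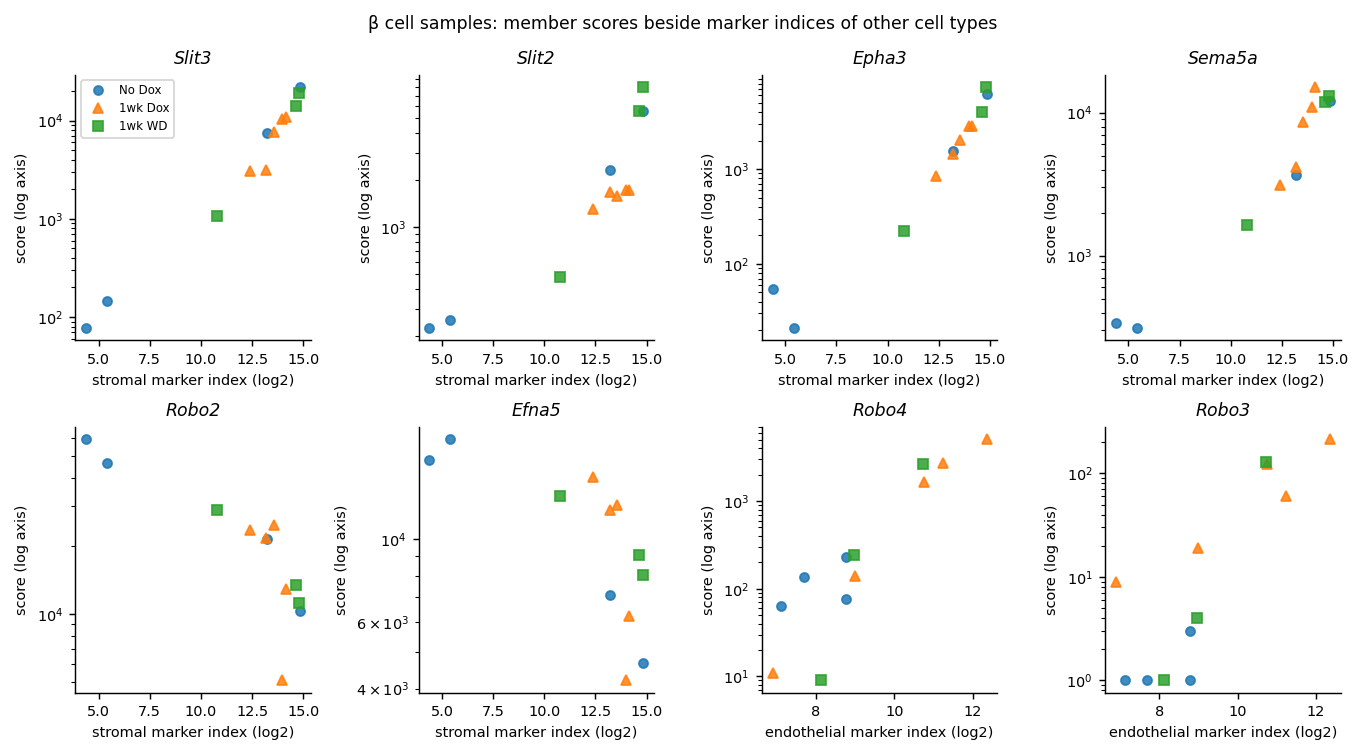
Scores (log axes) of 8 genes in the 12 β cell samples against the index of stromal markers (6 genes) or endothelial markers (*Robo4*, *Robo3*), each index being the mean log2(score + 1) of 9 markers. *Slit3*, *Slit2*, *Epha3*, and *Sema5a* are lowest in the 2 No Dox samples with a stromal index of 5.41 and 4.39, *Robo2* is highest in those 2, and *Robo4* reaches 5114 in the sample with the highest endothelial index.

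Between time points, β cells had no guidance gene called. The 3 comparisons were fitted together with limma over 16346 genes, 59 of them guidance genes. The count was 0 for 1wk Dox against No Dox (0.0122% of all genes called), 0 for 1wk WD against No Dox (0% of all genes), and 0 for 1wk WD against 1wk Dox (0%). At an unadjusted p under 0.05 with a 2-fold difference the counts were 6, 6, and 3 genes, beside 4.04, 4.45, and 2.88% of all genes. The direction was mostly upward: 42 of 59 genes had a higher mean log2 score at 1wk Dox than at No Dox (53.2% of all genes), with a median log2 difference of 0.79 against 0.03 over all genes. At 1wk WD 49 of 59 were higher than at No Dox (55% of all genes), with a median of 0.98 against 0.06. The stromal index was 10.8 to 14.8 in the 8 later β cell samples, and it was 5.41, 4.39, 13.2, and 14.8 at No Dox. The acinar index was lower in every 1wk Dox sample (3.74 to 10.4) than at No Dox (11.6 to 20.03), and was 15.5, 13.2, and 3.91 at 1wk WD. The No Dox samples had an endothelial index of 7.11 to 8.77, while it ranged from 6.89 to 12.4 after 1 week of Dox and was 8.13, 8.97, and 10.7 after withdrawal. The part of these cells in the shifts was not tested.

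*Robo3* was the only gene of the 59 whose 1wk Dox values all lay beyond those at No Dox (2.55% of all genes did). It scored 215, 123, 61, 19, and 9 at 1wk Dox against 1, 1, 3, and 1 (adjusted p = 0.428). *Robo4* scored 5114, 1648, 2721, 138, and 11 in the same 1wk Dox samples. The summed endothelial markers of these samples were 57073, 19115, 27432, 6603, and 1550, and *Robo4* followed their order, while *Robo3* was lowest in the last 2. Their part in the *Robo3* values was not tested. At 1wk WD 5 genes did not overlap with No Dox (6.44% of all genes), and all were higher (3.34%): *Sema7a* (1315, 1387, and 1178 against 69, 21, 721, and 495, log2 difference 3.08, SE 1.05, adjusted p = 0.566, and 1.11 without No Dox replicates 1 and 2), *Efnb1* (1.20, and 0.74 without 1wk WD replicate 3), *Plxna3* (1.03), *Sema4d* (0.51), and *Plxnb2* (0.46). Between 1wk WD and 1wk Dox 3 genes did not overlap (4.97%): *Sema6c* (386, 509, and 77 against 11 to 74) and *Sema3b* were higher by 2.59 and 1.53 (*Sema3b* by 0.94 without 1wk WD replicate 2), and *Efnb3* was lower by a log2 difference of -1.48. None of these passed the adjusted test.

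In ECs the comparison was 1wk WD (n = 5) against No Dox (n = 4), over 14167 genes, 56 of them guidance genes. A receptor rose and a ligand fell: 2 of the 56 were called (1.76% of all genes), 1 higher (1.28%) and 1 lower (0.487%). *Plxnb1*, the receptor of Sema4d, scored 327, 266, 212, 251, and 214 at 1wk WD and 105, 125, 138, and 131 at No Dox. All 1wk WD samples were higher, and the log2 difference was 1.01 (SE 0.20, adjusted p = 0.0206). *Sema3f*, a ligand that repels endothelial cells, scored 5219, 4993, 3078, 2279, and 3564 at 1wk WD and 7607, 7798, 8236, and 6868 at No Dox. It fell by 1.06 on the log2 scale (SE 0.21, adjusted p = 0.0185), and the groups did not overlap. Both calls sat near the 2-fold limit. Each was lost in 5 of the 9 fits that left out 1 sample. The count was 0 without No Dox replicate 1 or 3 and 1 without No Dox replicate 2 (*Slit3*, in place of both) or without 1wk WD replicate 2, 3, or 4, and without 1wk WD replicate 1 it was 2 with *Slit3* in place of *Plxnb1*.

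A further 4 genes had an adjusted p under 0.05 with less than a 2-fold difference (6 of 56 in all, beside 3.9% of all genes). *Slit3* scored 3647, 2921, 3001, 2832, and 1900 at 1wk WD against 7277, 4563, 5130, and 5094, a log2 difference of -0.95 (SE 0.18, adjusted p = 0.0157). All 5 were below all 4 No Dox samples. *Sema5a*, a ligand with attractive and repulsive actions, scored 13529, 11931, 17676, 14567, and 9217 against 28713, 21763, 21044, and 23759 (log2 difference -0.85, adjusted p = 0.0178). *Sema7a* scored 11242 to 18270 against 19550 to 23603 (-0.52, adjusted p = 0.0433), and neither gene overlapped. *Sema6a* was higher, at 26825 to 37516 against 20314 to 22806 (0.46, adjusted p = 0.0356). Groups did not overlap in 10 of the 56 genes (10.7% of all genes), 4 higher (5.75%) and 6 lower (4.91%) at 1wk WD. These 10 included *Epha3*, at 19, 11, 9, 144, and 28 against 4, 1, 3, and 4 (adjusted p = 0.0815), which passed the filter only through 1wk WD, and *Robo2*, at 90 to 234 against 58 to 81. The largest values of both came from 1wk WD replicate 4, which had the highest stromal index of the ECs (9.003). The stromal index was 7.24 to 9.003 in all 1wk WD ECs and 6.15 to 6.87 at No Dox, and the acinar index was 12.4 in replicate 1 and 4.75 to 6.32 in the other 1wk WD ECs against 12.2 to 17.03 at No Dox. The summed endothelial markers were lower at 1wk WD, at 409477 to 475942 against 553230 to 586872, without overlap. The part of these shifts in the differences was not tested. Other genes that were highest in ECs at No Dox were not called, such as *Robo4*, *Efnb2*, and *Ephb4*: *Robo4* differed by -0.12 (SE 0.11), *Efnb2* by -0.02 (SE 0.12), and *Ephb4* by -0.43 (SE 0.19, adjusted p = 0.215).

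ECs had a single 1wk Dox sample, so its scores were set beside the No Dox range without a test. Of 55 genes, 6 lay outside the range and at least 2-fold from the mean at No Dox (10.1% of all genes), 3 above (5.25%) and 3 below (4.86%). *Robo1* scored 258 (No Dox 24 to 107), *Sema5b* 500 (106 to 153), and *Efnb3* 140 (19 to 69), all above it. *Sema4a* scored 144 (209 to 2317), *Epha7* 4 (14 to 33), and *Efna5* 68 (86 to 205), all below it. Without the fold limit 39 of the 55 were outside the range, beside 62.1% of all genes. Among the abundant genes, *Robo4* scored 71010, *Sema6d* 45673, and *Plxnd1* 36017, each above all 4 No Dox samples by less than 2-fold. The acinar index of the 1wk Dox sample was 2.71, against 12.2 to 17.03 at No Dox. Its summed endothelial markers were 659411, against 553230 to 586872. The part of these shifts in the values above was not tested.

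In MΦs the 3 time points were fitted over 15014 genes, 52 of them guidance genes, and *Sema6d* was the only guidance gene called. *Sema6d* (ENSMUSG00000027200, chr2:123915705-124493506) encodes a membrane-bound semaphorin that signals through plexin-A1. Its No Dox scores were 1007, 970, 604, and 694. The 1wk Dox samples, which have the separate column numbers, scored 3470 and 3077. Those of 1wk WD scored 3491, 2936, 2855, and 2974. All 6 later samples were above all 4 No Dox samples. It rose by 2.03 on the log2 scale at 1wk Dox (SE 0.21, adjusted p = 0.000988) and by 1.93 at 1wk WD (SE 0.17, adjusted p = 0.00085), which share the No Dox samples. The background was 2.26% of all genes called at 1wk Dox (1.61% higher), and 0.626% (0.42% higher) for withdrawal. At 1wk Dox, which has 2 samples, the call was lost without replicate 4 (log2 difference 1.94, adjusted p = 0.0806). The 1wk Dox call was also lost with the sample number as a replicate block, as given at the end. The 1wk WD call was kept in all 8 refits without 1 sample, with an adjusted p of at most 0.00673.

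ECs carried more *Sema6d* than MΦs at each time point, so endothelial markers are given beside it. Their summed score in No Dox MΦs was 1758 to 2432. It was 3456 and 4286 in the Dox samples and 2096 to 3123 after withdrawal, against 553230 to 586872 in No Dox ECs. The acinar index was 11.5 to 19.7 in No Dox MΦs, 5.95 and 8.27 in the Dox samples, and 14.1, 7.49, 7.28, and 6.71 after withdrawal. A lymphocyte index was 3.66 to 5.59, then 4.37 and 4.50, then 5.62 to 7.17. The summed macrophage markers were 225585 to 341271 at No Dox, 467468 and 375307 in the Dox samples, and 356654 to 437791 after withdrawal, so both later groups lay above No Dox without overlap. The part of these cells and of this shift in the *Sema6d* values was not tested. The EC receptor *Robo4* scored 1, 14, 63, and 135 in 1wk WD MΦs, in the order in which *Sema6d* scored 3491, 2936, 2855, and 2974. *Plxna1*, the receptor of Sema6d, scored 5224 and 4865 at 1wk Dox against 3796, 2560, 2876, and 2602 at No Dox, with no overlap. Its log2 difference was 0.79 (SE 0.17, adjusted p = 0.0250), which is under the 2-fold limit.

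Groups did not overlap for 17 of the 52 genes at 1wk Dox (30.9% of all genes), 7 after withdrawal (9.24%), and 18 between 1wk WD and 1wk Dox (30%). The largest of these at 1wk Dox were *Robo4* (258 and 144 against 4 to 28, adjusted p = 0.117), *Efna2* (38 and 20 against 1 to 4, adjusted p = 0.114), and *Ephb1* (51 and 25 against 1 to 21) among the higher, and *Ntn4* (-1.92), *Ntn1* (-1.69, and -0.90 without No Dox replicate 2), and *Ephb2* (-1.33, and -0.67 without 1wk Dox replicate 4) among the lower. *Efna2* and *Ephb1* reached the minimum mean score of 20 only at 1wk Dox, so the filter itself chose them for being high there. *Robo4* and *Ephb1* are among the EC genes, and the endothelial sum was higher in these 2 samples. *Ntn1* scored 3814 in No Dox replicate 2, 282 to 780 in the other No Dox samples, and 202 and 256 at 1wk Dox. Replicate 2 also had the highest acinar index of the MΦ samples (19.7).

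At 1wk WD the higher genes other than *Sema6d* were *Sema6c* (1.64, adjusted p = 0.369, and 0.78 without No Dox replicate 3, which scored 1 against 20 to 21 in the others), *Unc5b* (1.35, adjusted p = 0.127), and *Plxnb3* (1.00, adjusted p = 0.131), and the lower ones were *Ntn4* (-1.94, adjusted p = 0.115), *Plxna2* (-1.44, adjusted p = 0.065), and *Ephb2* (-1.37). Among these, *Sema6c* reached the minimum mean score only at 1wk WD, so the filter itself chose it for being high there. From 1wk Dox to 1wk WD, 0 genes were called (0.0866% of all genes), and 4 had an unadjusted p under 0.05 with a 2-fold difference (1.82%). *Sema6c* (1.47, and 0.31 or 2.63 without 1wk Dox replicate 5 or 4, which scored 5 and 29), *Sema4c* (0.60), and *Sema4d* (0.30) were the highest of the non-overlapping genes, and *Robo4* (-3.10, and -1.93 without 1wk WD replicate 1), *Sema3c* (-2.49), and *Sema3f* (-2.23) the lowest. The adjusted p was 0.483 for *Robo4*. *Sema3f* passed the filter only through 1wk Dox, and *Sema6c* only through 1wk WD.

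**Figure D4:**
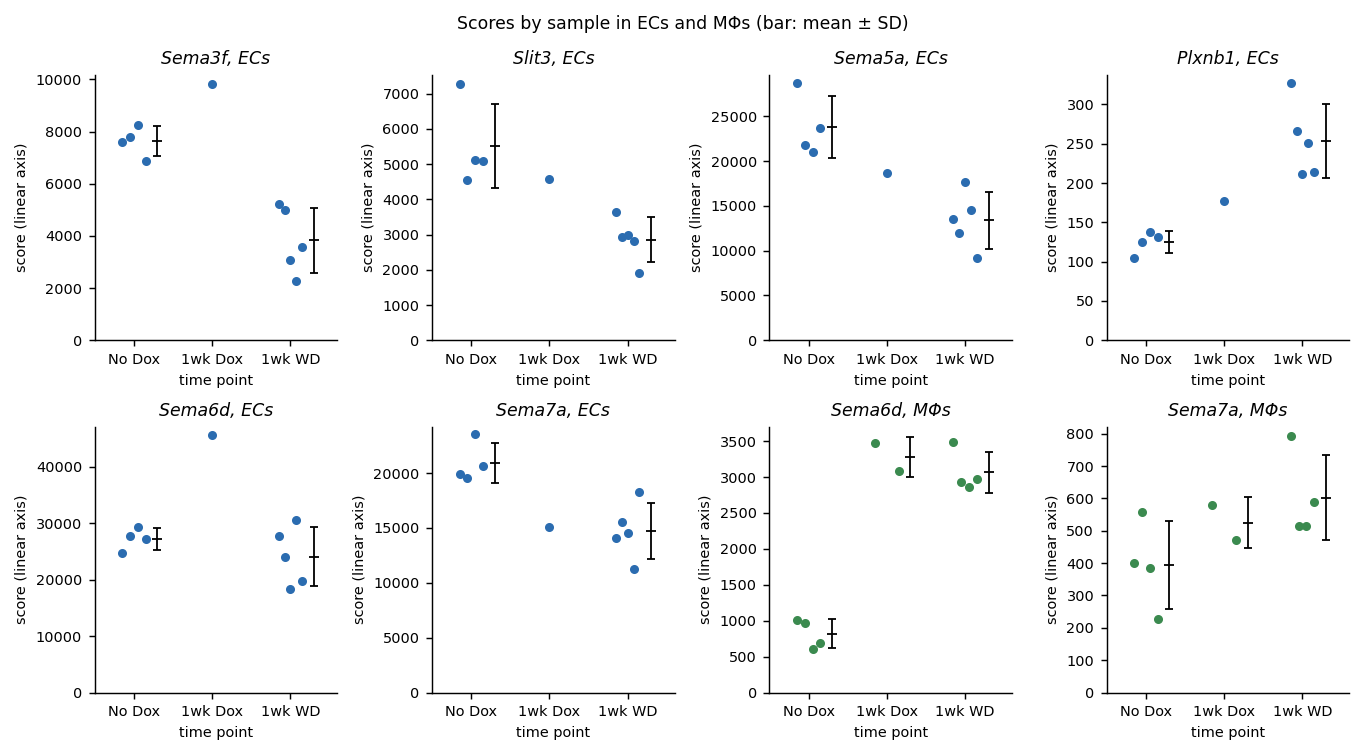
Scores of single samples (points) and mean ± SD (black bars) at the 3 time points for 6 genes in ECs and 2 in MΦs, each panel on its own linear axis from 0. *Sema3f*, *Slit3*, and *Sema5a* are lower and *Plxnb1* higher in all 5 EC samples at 1wk WD than in the 4 at No Dox, and *Sema6d* is above 2800 in all 6 later MΦ samples.

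Whether ECs and MΦs differed in their change from No Dox to 1wk WD was tested as an interaction over 15603 genes, 59 of them guidance genes. It was called for 2 of them (1.4% of all genes). *Sema6d* rose by 1.93 in MΦs and differed by -0.20 in ECs, and the difference of the changes was -2.13 (ECs minus MΦs, SE 0.24, adjusted p = 0.000414). *Sema7a* differed by -0.52 in ECs and by 0.66 in MΦs, where it scored 793, 514, 514, and 590 against 401, 559, 385, and 227, which overlap. The difference of its changes was -1.18 (SE 0.30, adjusted p = 0.0461), and this call was lost in 14 of 17 refits without 1 sample. *Sema3f* (adjusted p = 0.367) and *Plxnb1* (adjusted p = 0.970) were not called in this test.

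**Figure D5:**
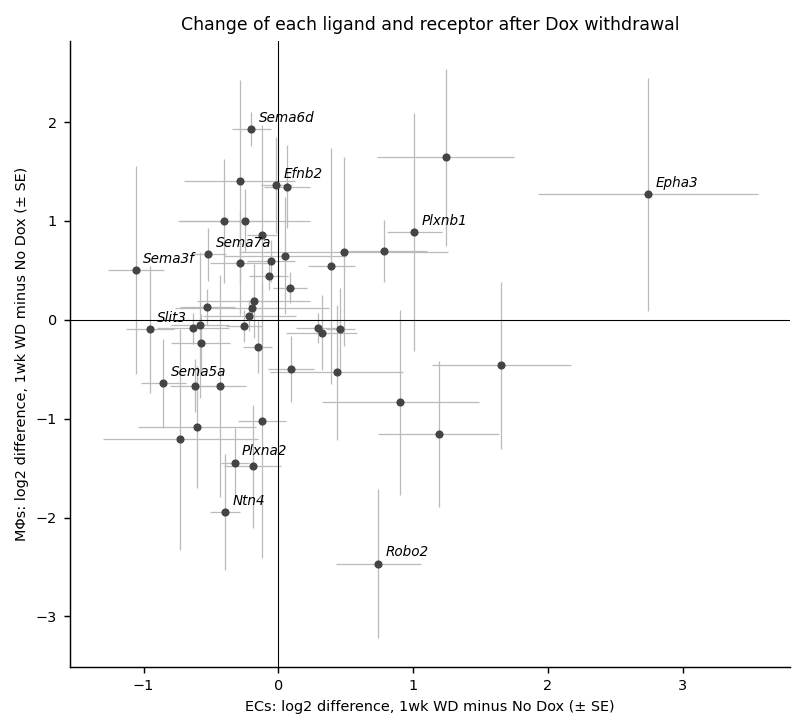
Log2 difference between 1wk WD and No Dox in ECs (x axis) and in MΦs (y axis) with SE bars, for the 48 genes fitted in both. *Sema6d* stands highest on the MΦ axis at 1.93 with an EC value of -0.20, while *Sema3f* and *Plxnb1* lie at -1.06 and 1.01 on the EC axis.

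Other genes of the pathways were taken from lists of 12 further receptors and coreceptors, 7 further ligands, and 50 signalling genes. In ECs at 1wk WD 2 of 11 receptors tested rose and 1 fell, 0 of 3 ligands were called, and 3 of 48 signalling genes rose, where 1.76% of all genes were called. The receptors were *Flrt2*, an adhesion protein that binds Unc5 receptors (2.42, SE 0.19, adjusted p = 0.000247), *Plxdc2* (2.32, adjusted p = 0.0206), and *L1cam*, an adhesion molecule of axons, which fell by 1.08 (adjusted p = 0.0206). The signalling genes were *Vav2* (1.21), *Dpysl3*, a collapsin response mediator (1.10), and *Met*, the receptor of hepatocyte growth factor that plexins of the B type can engage (1.09). Medians of the 3 lists were -0.01, -0.47, and 0.06, beside 0.00 over all genes. The stromal index was 7.24 to 9.003 in these 1wk WD ECs against 6.15 to 6.87 at No Dox, and the summed endothelial markers were lower. The part of these shifts in the calls was not tested. In MΦs at 1wk Dox 1 of 47 signalling genes rose, *Cfl1*, the actin-severing protein cofilin (1.13, SE 0.22, adjusted p = 0.0161), and 0 of 11 receptors and 0 of 5 ligands were called (2.26% of all genes). In the MΦ comparisons of 1wk WD and in the β cell comparisons of time points, 0 genes of the lists were called. In the interaction, *Nrp1* (-1.14), *Plxdc2* (2.41), *Met* (1.51), and *Srgap1*, a regulator that acts below Robo receptors (1.20), were called (1.4% of all genes).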

How the data were processed

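RNA of sorted β cells, ECs, and MΦs was amplified (NuGEN Ovation) and sequenced as paired 50 bp reads. Per the labels and the study's methods, the authors mapped reads to mm9 with TopHat2 2.0 and normalized them by TMM in Avadis NGS. The deposited values are whole-number scores of normalized expression per gene, so no count test was run. The annotation version is not given in the sources used here. The table held 38 columns of samples, of which 32 were used and 6 belong to another series.

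Genes whose mean score reached 20 in a fitted group were tested as log2(score + 1) in limma 3.58.1 (R 4.3.3) with a trend of the spread. Fold changes are on that scale and understate changes of low genes. A call needed a 2-fold difference and a Benjamini-Hochberg adjusted p under 0.05 over all genes tested. Cell types were fitted together per time point, and time points per cell type. The single EC 1wk Dox sample had no test. Tables were made in Python 3.11.15 with pandas 2.3.3 and numpy 2.4.6, and plots with matplotlib 3.10.9.

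The guidance genes, pathway lists, and marker lists were chosen with earlier results of these data known. Genes were named where called over time or in the interaction, where highest in 1 cell type at No Dox, where among the 3 largest rises or falls without overlap, where counted in the single EC sample, where a partner of one of these, or where a pathway gene was called over time. Neuropilins, *Neo1*, and *Dcc* were named by cell type. *Ephb2* at 1wk WD, *Sema3c*, *Plxnb2*, *Epha1*, and other genes set apart by a low value, the β cell replicate examples, and abundant EC genes below the limits were named after their values were seen.

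Alternatives covered the pseudocount (20 and 0.1), the filter (none and 200), scaling, the trend, sample weights, the fold limit, a replicate block, and leaving out each sample. Leaving out pairs of No Dox β cell replicates was chosen after seeing the data. In simulated data with 200 changed genes, 4-fold and 8-fold changes were recovered for 92 and 98% in the EC withdrawal comparison, 79 and 87% in MΦs at 1wk Dox, and 65 and 84% in β cells at 1wk Dox. Only genes above a minimum level were changed, and noise was drawn independently for each gene and sample. Shifts shared by many genes, like those between No Dox β cell replicates, were left out. The rates are therefore not those of the guidance genes.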

Additional observations from a re-analysis of the deposited data

Results flagged for a closer look

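In 4 groups 1 sample passed Dixon's test, which was run on 41 groups and by chance marks about 1 in 20 of them. For *Robo3* and *Efna2* the other 3 samples were tied at the lowest score of 1, so any other value would have passed. *Robo3* was 3 in No Dox β cell replicate 3 and 1 in the other 3. *Robo2* was 234 in 1wk WD EC replicate 4 and 90 to 107 in the other 4. *Efna2* was 4 in No Dox MΦ replicate 1 and 1 in the others, and *Sema6c* was 1 in No Dox MΦ replicate 3 and 20 to 21 in the others.

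The change from No Dox to 1wk WD differed between ECs and MΦs by the interaction test for *Sema6d*, by -2.13 on the log2 scale (adjusted p = 0.000414 in limma), and for *Sema7a*, by -1.18 (adjusted p = 0.0461).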

How the results depend on the processing

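Counts of guidance genes called in either direction between cell types moved by less than 1.5 times under every alternative, while those higher in MΦs than in β cells at No Dox went from 9 to 15 without β cell replicates 3 and 4, and 0 called values changed direction. Over time, the EC 1wk WD count of 2 was 1 with log2(score + 20), median-of-ratios scaling, quantile normalization, or no trend, 6 with no fold limit, and 0 to 2 with a sample left out, and with sample weights it stayed 2 with *Plxnb1* kept, *Sema3f* lost (-0.81), and *Epha3* added. The MΦ 1wk Dox count of 1 was 2 with log2(score + 20), with no filter, or with no fold limit, 6 with sample weights, and 0 to 3 with a sample left out (0 without 1wk Dox replicate 4, 3 without No Dox replicate 2, and 2 without No Dox replicate 3). The MΦ 1wk WD count of 1 was 2 with a minimum of 200 or with sample weights, and that between 1wk WD and 1wk Dox was 2 in place of 0 with sample weights. The interaction count of 2 was 1 with no filter or no trend, 4 with sample weights, and 1 to 4 with a sample left out (4 without MΦ No Dox replicate 1 or 4). The single EC sample's count of 6 was 3 with a minimum of 200. Without No Dox replicates 1 and 2, the β cell count at 1wk Dox was 1 (*Ntn1*, lower by -2.64, adjusted p = 0.0111 in limma) in place of 0. The causes were not tested. Some fits of the sample weights stopped before they had converged.

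Same-numbered samples did not deviate together throughout (correlations of -0.48 to 0.384, and in no comparison with 3 or more pairs were all above 0.1), so the numbers were not taken as pairs. Some likeness by number was seen between cell types. At 1wk WD, replicate 1 had the highest acinar index of each cell type (ECs 12.4, MΦs 14.1, β cells 15.5). At No Dox, replicate 2 was highest for ECs (17.03) and MΦs (19.7) but lowest for β cells (11.6). The best match had the same number for 3 of 4 pairs between MΦs and ECs at 1wk WD. It did for 0 of 4 between ECs and β cells at No Dox. Whether equal numbers mark a shared origin was not tested. With the number as a replicate block, the MΦ 1wk Dox count was 0 (*Sema6d* 2.24, adjusted p = 0.0646 in limma) and the EC count was 2, with *Sema3f* kept, *Plxnb1* lost, and *Robo1* added.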
